A study of Mus musculus with 3 samples.

Results

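Genes whose products fill the granules and the cytosol of neutrophils were followed in RNA of 4T1 cancer stem cell spheroids (CSCsp). The genes are Elane, Mpo, Prtn3, Ltf, Camp, Ngp, Mmp8, Lyz2, S100a8 and S100a9. They are 10 of the 24402 gene symbols in the deposited files, and all 10 were found by their symbols. These genes were selected on values of these same libraries seen earlier, so their levels are given as a description and no test was run on them. 4T1 is a mouse mammary carcinoma line from the Balb/c strain, and its spheroids, grown in plates to which cells do not attach, are used as a source of stem-like tumor cells.

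The study set 3 conditions against each other, with 1 library each. Library R is labelled as CSCsp co-cultured with splenocytes that had been primed by a tumor and then activated further with anti-CD3/CD28 dynabeads and IL2. Library P is labelled as CSCsp co-cultured with tumor antigen primed splenocytes held in Dulbecco's phosphate buffered saline (DPBS), without that further activation. Library N is labelled as CSCsp without splenocytes. All spheroids were grown for 7 days in serum-free medium and kept on a 40 μm strainer. The splenocytes of P and R came from female Balb/c mice that received 4T1 cells in the mammary fat pad at 8 weeks of age, and the spleens were taken 28 days later. Red blood cells were lysed, and no sort by cell type is described, so a splenocyte suspension may hold neutrophils with the other white cells. After co-culture the spheroids were washed on the strainer to remove single splenocytes. Equal amounts of RNA from independent experiments were multiplexed for sequencing, which is not said to be pooling, and with 1 library for each condition the values have no replicate, SD or p-value. It is uncertain which of 2 libraries is N and which is P. The command lines in the file headers name the library labelled N after DPBS, the saline in which the primed splenocytes of P were held, and name the library labelled P as not treated. Libraries are called by their labels here, and every direction that involves N or P rests on those labels.

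Neutrophils make their granules in sequence while they mature in the bone marrow. Primary (azurophil) granules come first, at the promyelocyte stage, and carry myeloperoxidase and serine proteases. Secondary (specific) granules follow and carry lactoferrin, cathelicidin and collagenase. Transcripts of granule proteins are therefore found mostly in immature cells, whereas the calgranulins S100a8 and S100a9 stay abundant in the cytosol of mature neutrophils. 4T1 tumors are known to expand granulocytes and their precursors in the spleen of the host. Some of these genes also have other sources, since lactoferrin is made by mammary epithelium, lysozyme by macrophages and calgranulins by epithelia.

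Because these genes are switched on in the same lineage by C/EBP factors and by PU.1 (the product of Spi1), the bases just before their start sites are shown for the 3 genes of primary granules, and for Ngp and Lyz2 as genes of later or mixed granules. Each is 250 bases long, ends at the base before the RefSeq start of the gene and comes from RefSeq promoters of GRCm38.p6, in which all 10 genes were matched. Capitals mark matches, on either strand, to TTNNGNAA (a core of the C/EBP motif) or to GAGGAAG (a core of the PU.1 motif), and no 2 matches overlapped in these windows.
Elane, chr10:79886062-79886311, plus strand: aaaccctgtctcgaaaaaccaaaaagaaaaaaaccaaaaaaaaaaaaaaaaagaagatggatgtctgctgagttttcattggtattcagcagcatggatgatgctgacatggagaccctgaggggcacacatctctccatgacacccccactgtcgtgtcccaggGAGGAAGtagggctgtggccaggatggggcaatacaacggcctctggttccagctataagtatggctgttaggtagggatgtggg
Prtn3, chr10:79879417-79879666, plus strand: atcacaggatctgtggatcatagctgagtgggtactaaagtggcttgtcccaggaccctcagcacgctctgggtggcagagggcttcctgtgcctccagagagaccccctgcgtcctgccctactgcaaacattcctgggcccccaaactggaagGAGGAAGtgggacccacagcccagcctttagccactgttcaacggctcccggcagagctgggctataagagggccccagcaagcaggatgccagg
Mpo, chr11:87793534-87793783, plus strand: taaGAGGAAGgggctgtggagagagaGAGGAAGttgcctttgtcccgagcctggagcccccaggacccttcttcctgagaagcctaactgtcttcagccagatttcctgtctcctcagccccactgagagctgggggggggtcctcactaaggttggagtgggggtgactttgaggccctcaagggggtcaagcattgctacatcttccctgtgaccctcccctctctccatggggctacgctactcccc
Ngp, chr9:110419558-110419807, plus strand: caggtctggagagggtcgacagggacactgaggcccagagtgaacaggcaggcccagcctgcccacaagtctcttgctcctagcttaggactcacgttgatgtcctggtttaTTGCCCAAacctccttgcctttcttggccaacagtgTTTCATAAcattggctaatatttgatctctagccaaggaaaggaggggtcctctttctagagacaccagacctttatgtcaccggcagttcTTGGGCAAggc
Lyz2, chr10:117282273-117282522, minus strand: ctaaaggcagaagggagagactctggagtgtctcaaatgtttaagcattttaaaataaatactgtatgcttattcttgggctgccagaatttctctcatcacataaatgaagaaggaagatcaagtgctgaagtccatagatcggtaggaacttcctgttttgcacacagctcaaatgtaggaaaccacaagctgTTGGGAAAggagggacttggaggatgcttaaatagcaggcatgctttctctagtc

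In these windows the 3 genes of primary granules had the PU.1 core and not the C/EBP core. The core began 85 bases before the start of Elane and 95 bases before that of Prtn3, on the strand of the gene, and 247 and 224 bases before that of Mpo. Ngp had 3 C/EBP cores, at 138, 102 and 11 bases, and Lyz2 had 1, at 55 bases. The genes not shown did not follow one split, since Mmp8 and S100a8 had both cores, Ltf and S100a9 the C/EBP core alone and Camp neither. Over the 10 genes, 6 had a C/EBP core and 5 had a PU.1 core. The shares among all 32851 RefSeq promoters of this length were 36.8% and 10.6%. A match is a description of letters and was not set against binding of either factor.

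The levels of the 10 genes split the libraries in the same way for most of them. FPKM, a fragment count scaled to transcript length and library size, was summed over the transcripts of a gene, and the fragments behind it were counted as aligned bases over 300. Without Ltf, the other 9 genes together reached 19.8 FPKM in R, 1.40 FPKM in P and 51.1 FPKM in N, on 366, 18 and 897 fragments. Ltf itself had 11.3 FPKM in R, 12.3 FPKM in P and 16.1 FPKM in N. Ltf thus made up 36.4% of the summed FPKM of the 10 genes in R, 89.7% in P and 24.0% in N. Of the 10 genes 7 were at or above 1 FPKM in R, 1 was in P and 7 were in N. In P, 4 genes were listed at 0, and in R and N none. Of all 24402 gene symbols, 10966 in R, 10929 in P and 10921 in N were at or above 1 FPKM. Those above 0 were 16041 in R, 15556 in P and 15742 in N. A value of 0 was thus common among all genes in each library. That background includes genes silent in every library, whereas the 10 genes were all above 0 in R and in N. The share at 0 in P among genes above 0 in R and N was not counted. These numbers therefore do not say whether 4 of 10 at 0 in P is unusual. Of the 10 genes 8 were highest in N and 2 in R, and 8 were lowest in P and 2 in R. In bulk RNA, fewer cells of a type and less RNA per cell cannot be told apart.

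**Figure D1:**
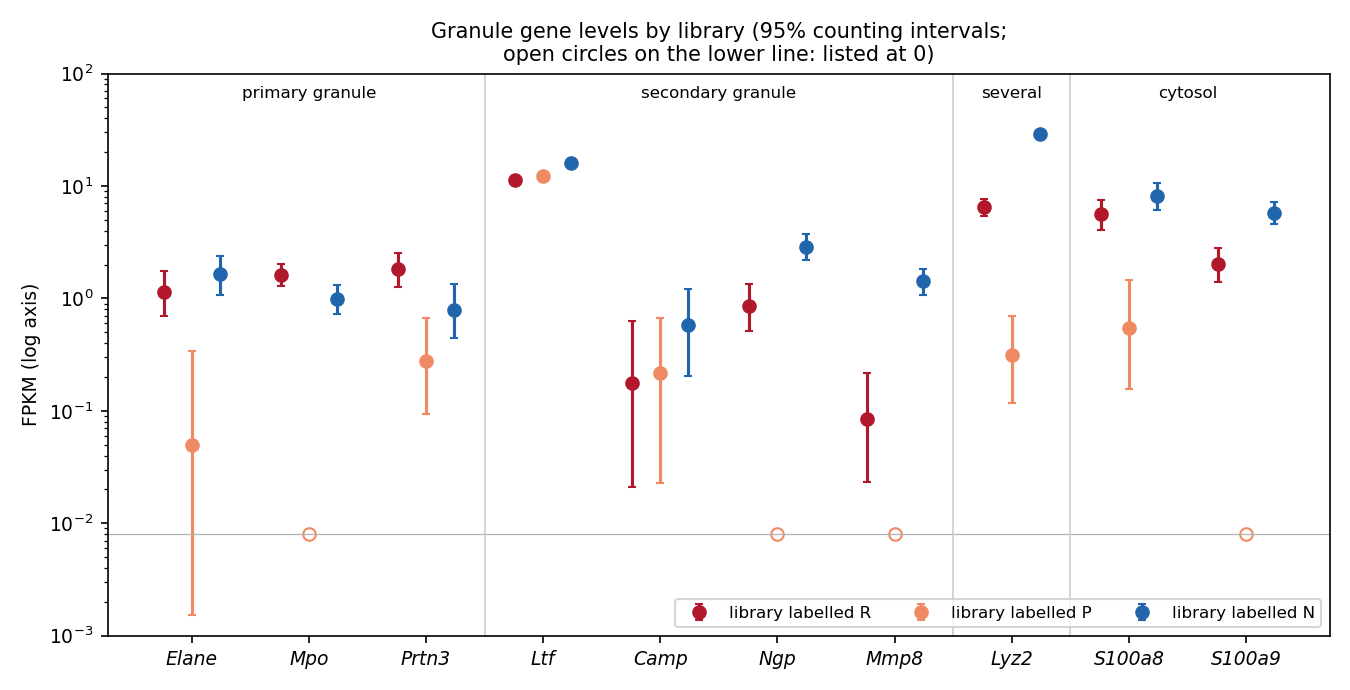
FPKM of the 10 genes (log axis) in the libraries labelled R, P and N, grouped by where the protein is stored. Bars are exact 95% Poisson intervals on fragments, and open circles mark the 4 genes listed at 0 in P; Ltf alone is above 1 FPKM in P.

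The primary granule genes were lowest in P, and those of R and N differed by gene. Elane, neutrophil elastase, lies on chromosome 10 (79886312 to 79888216, plus strand, 5 exons). It had 1.14 FPKM in R (95% counting interval 0.692 to 1.75, 20 fragments), 0.0494 FPKM in P (0.00154 to 0.339, 1 fragment) and 1.64 FPKM in N (1.08 to 2.39, 27 fragments). All 5 exons carried reads in R and in N, against 1 in P, so that the value in P rests on 1 fragment at the 3' end. Prtn3, proteinase 3, starts just upstream on the same strand (79879667 to 79883172, 5 exons). It had 1.82 FPKM in R (1.27 to 2.55, 34 fragments), 0.280 FPKM in P (0.0936 to 0.672, 5 fragments) and 0.782 FPKM in N (0.441 to 1.35, 14 fragments). Prtn3 was the highest of the 3 in R and the lowest of them in N. Mpo, myeloperoxidase, which makes hypochlorous acid, lies on chromosome 11 (87793784 to 87804412, plus strand, 14 exons). It had 1.61 FPKM in R (1.28 to 2.02, 79 fragments) and 0.995 FPKM in N (0.720 to 1.32, 45 fragments), and was listed at 0 in P, where 3 fragments would have given 0.0659 FPKM. Mpo reads lay on all 14 exons in R and on 13 in N. A non-coding transcript named Bc1 is annotated on the other strand across both Elane and Prtn3, and it had 0.0280 FPKM in R, 0 in P and 0.116 FPKM in N.

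Between R and P, the Elane ratio was 23.1 (2.98 to 773) and the Prtn3 ratio 6.51 (2.47 to 20.8). Between R and N, Prtn3 was 2.33 times as high in R (1.18 to 4.57) and Mpo 1.62 times (1.12 to 2.42), and the interval of neither reached 1. For Elane the ratio of R over N was 0.697 (0.367 to 1.28), an interval that holds 1. These intervals cover counting error only. Between P and N the ratio was 0.0302 for Elane (0.000905 to 0.225) and 0.358 for Prtn3 (0.101 to 1.05).

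The secondary granule genes did not move together. Ltf, lactoferrin, an iron-binding protein of milk and of specific granules, lies on chromosome 9 (111019292 to 111042766, plus strand, 17 exons). Its 11.3 FPKM in R (10.4 to 12.3), 12.3 FPKM in P (11.3 to 13.3) and 16.1 FPKM in N (15.0 to 17.3) rest on 596, 601 and 791 fragments. The ratios were 0.925 for R over P (0.824 to 1.04), 0.703 for R over N (0.631 to 0.783) and 0.760 for P over N (0.682 to 0.846). Ltf is therefore the one gene of the 10 whose level in P stood within 2-fold of both other libraries. All 17 of its exons carried reads in every library, with a median exon depth of 73.4 in R, 80.6 in P and 108 in N.

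Ngp, neutrophilic granule protein, lies on the same chromosome (110419808 to 110423012, plus strand, 4 exons). It had 0.856 FPKM in R (0.514 to 1.33, 19 fragments) and 2.87 FPKM in N (2.204 to 3.72, 60 fragments), and was listed at 0 in P, where 3 fragments would have given 0.144 FPKM. The ratio of R over N was 0.299 (0.167 to 0.502). Mmp8, neutrophil collagenase (chromosome 9, 7558429 to 7568486, plus strand, 10 exons), had 0.0843 FPKM in R (0.0232 to 0.218, 4 fragments) and 1.42 FPKM in N (1.08 to 1.81, 62 fragments), and was listed at 0 in P. Reads of Mmp8 lay on 3 of its 10 exons in R and on all 10 in N. Its R over N ratio was 0.0594 (0.0159 to 0.162), and Mmp8 was the member lowest in R relative to N. Camp, the cathelicidin precursor (chromosome 9, 109847377 to 109849456, minus strand, 4 exons), was low in every library. It had 0.178 FPKM in R, 0.217 FPKM in P and 0.584 FPKM in N, on 2, 2 and 6 fragments, and its 3 intervals overlap. At these counts a difference between the libraries was not detectable for Camp.

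Set side by side, the 3 primary granule genes summed to 4.57 FPKM in R, 0.329 FPKM in P and 3.42 FPKM in N, on 133, 6 and 86 fragments. Camp, Ngp and Mmp8 summed to 1.12 FPKM in R, 0.217 FPKM in P and 4.87 FPKM in N, on 25, 2 and 128 fragments. In R the primary granule genes thus stood above these 3 secondary granule genes, and in N below them. With Ltf the 4 secondary granule genes summed to 12.5 FPKM in R, 12.5 FPKM in P and 21.0 FPKM in N, above the primary granule genes in each library. The switch of order between R and N was therefore seen only without Ltf. It was described after its values were seen and has no replicate check.

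**Figure D2:**
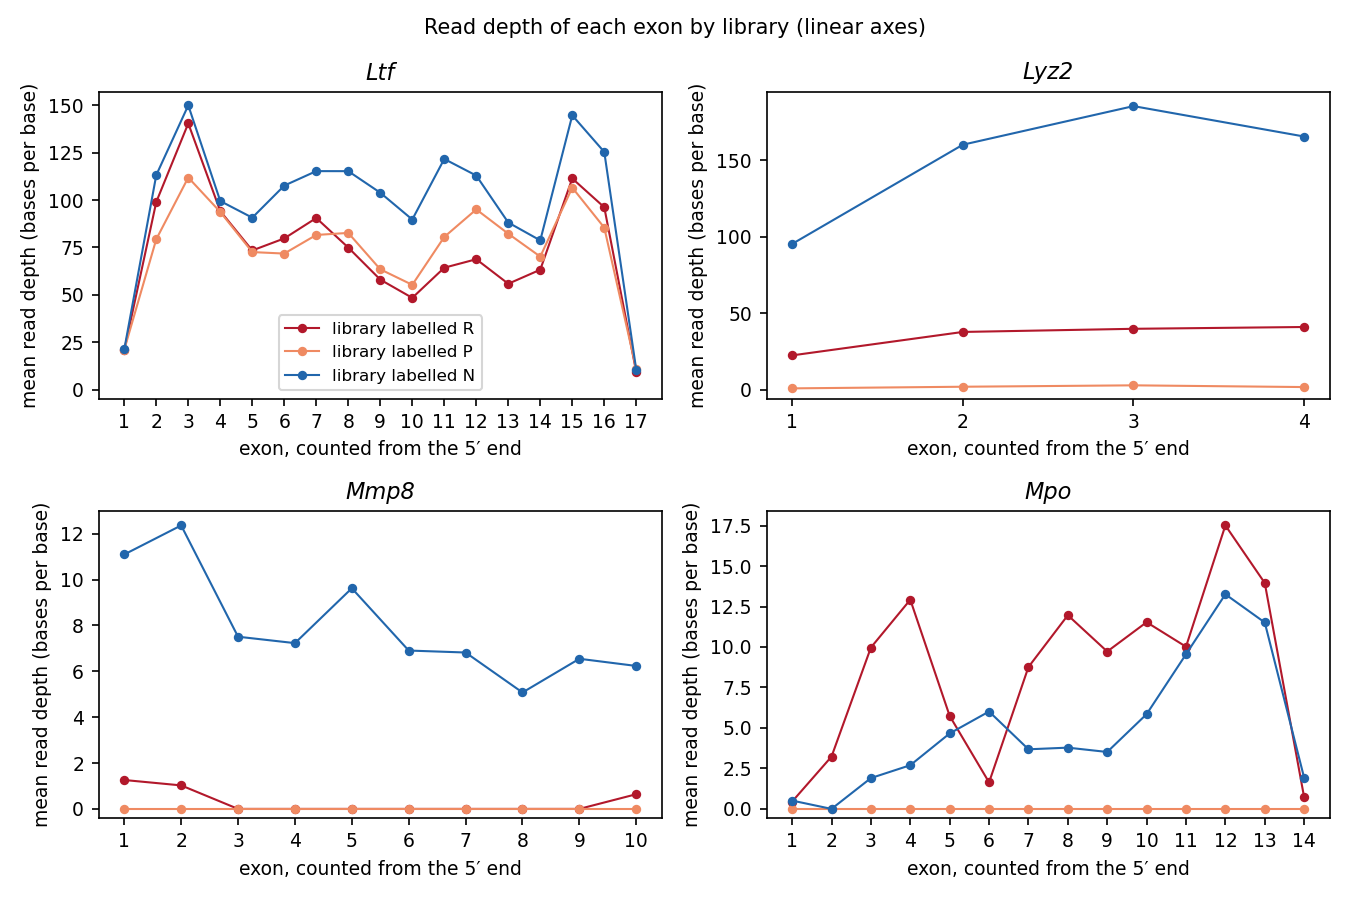
Mean read depth of each exon, numbered from the 5' end, for Ltf, Lyz2, Mmp8 and Mpo in the libraries labelled R, P and N (linear axes). Ltf has reads on all 17 exons in all 3 libraries, whereas Mmp8 has them on 3 of 10 exons in R and Mpo on none in P.

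Lyz2, lysozyme M, is stored in more than 1 kind of granule and is also made by monocytes and macrophages. It lies on chromosome 10 (117277541 to 117282272, minus strand, 4 exons). Its level was 6.51 FPKM in R (5.45 to 7.72, 132 fragments), 0.313 FPKM in P (0.116 to 0.691, 6 fragments) and 28.9 FPKM in N (26.5 to 31.4, 547 fragments). None of these intervals overlap. The ratios were 20.8 for R over P (9.18 to 56.9), 0.225 for R over N (0.185 to 0.273) and 0.0108 for P over N (0.00401 to 0.0240). All 4 exons carried reads in each library, P included, at a median depth of 38.8 in R, 1.80 in P and 163 in N. The close copy Lyz1, with which Lyz2 could share reads, was listed at 0 in all 3 libraries.

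The calgranulin genes lie near each other on chromosome 3. S100a8 (90669071 to 90670034, plus strand, 3 exons) had 5.58 FPKM in R (4.03 to 7.55, 42 fragments), 0.546 FPKM in P (0.155 to 1.46, 4 fragments) and 8.20 FPKM in N (6.15 to 10.5, 57 fragments). Its ratio was 10.2 for R over P (3.55 to 37.6) and 0.0666 for P over N (0.0185 to 0.190). For R over N it was 0.681 (0.450 to 1.04), and at this depth R and N could not be told apart for S100a8. S100a9 (90692630 to 90695721, minus strand) had 2.03 FPKM in R (1.39 to 2.80, 34 fragments) and 5.74 FPKM in N (4.55 to 7.16, 79 fragments), and was listed at 0 in P. The ratio of R over N was 0.353 (0.226 to 0.528).

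How S100a9 was read differed between libraries. RefSeq has 2 spliced forms of the gene with 3 exons each, and StringTie assembled a further transcript from the reads, with 2 exons, in which the intron between the first and the second RefSeq exon is kept. All of the 2.03 FPKM in R came from that assembled transcript, and both RefSeq forms were at 0 there. In N the assembled transcript had 3.90 FPKM, or 67.9% of the gene, and the RefSeq forms had 0.980 and 0.862 FPKM. Exons of the assembled transcript had a depth of 7.33 (5' exon) and 20.3 (3' exon) in R, against 12.0 and 38.7 in N. On RefSeq transcripts alone S100a9 would therefore be listed at 0 in R as well as in P. S100a9 was the only one of the 10 genes with an assembled transcript, so the other 9 are the same on either reading. The log2 ratio of R over N for S100a9 was -1.46 as reported. On RefSeq transcripts alone it was -4.28. On the transcript of highest mean FPKM alone it was -0.91, and 3 members in place of 4 were then at least 2-fold lower in R over N. Those were 3 of 9 members read, against 413 of 11074 genes. The counting interval of this ratio does not cover that spread.

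**Figure D3:**
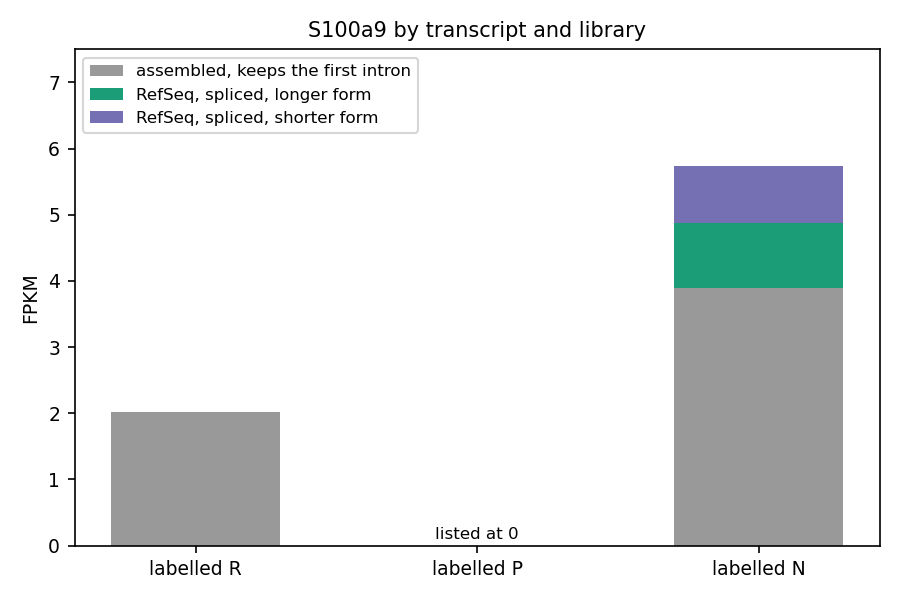
FPKM of S100a9 in the libraries labelled R, P and N, stacked by transcript. The assembled transcript that keeps the first intron makes up all of the 2.03 FPKM in R and 3.90 FPKM in N, and P is listed at 0.

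The order of the 10 genes was not the same in the libraries. In R it ran from Ltf through Lyz2, S100a8, S100a9, Prtn3, Mpo, Elane and Ngp to Camp and Mmp8, and the counting intervals of 7 of the 9 neighbouring pairs overlapped. P had Ltf first, and the intervals of 8 of 9 pairs overlapped, those of all genes after Ltf. Library N was led by Lyz2, followed by Ltf, S100a8, S100a9, Ngp, Elane, Mmp8, Mpo, Prtn3 and Camp, and 6 of 9 pairs overlapped. Only Ltf in R and P, and Lyz2 and Ltf in N, were set apart by their intervals from every other gene of the 10.

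**Figure D4:**
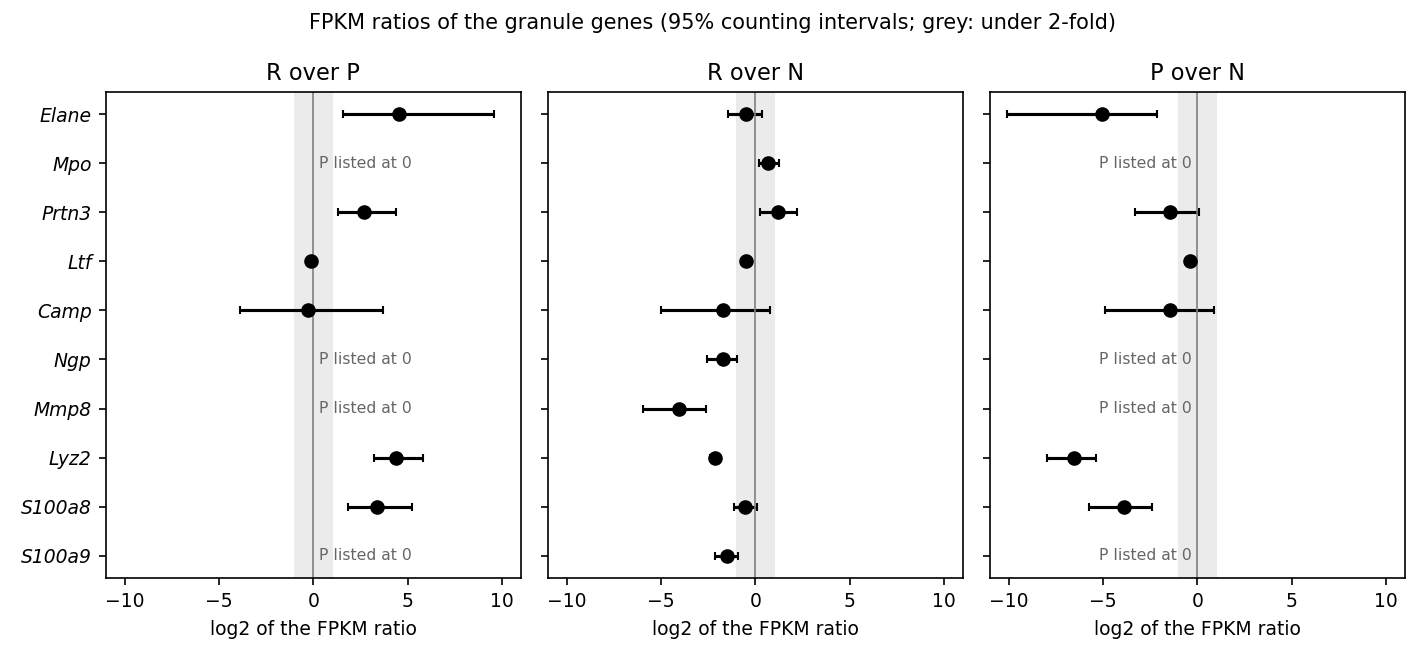
Log2 of the FPKM ratio of each gene for R over P, R over N and P over N, with exact 95% Clopper-Pearson intervals (counting error only) and grey for ratios under 2-fold. Genes listed at 0 in P carry no ratio for R over P and for P over N. Ltf is within 2-fold in all 3 comparisons, and Mmp8 and Lyz2 are the lowest in R over N.

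Against all genes, the 10 genes were counted by 1 rule. A gene was read where 1 or both of the libraries compared had 1 FPKM or more, and it was called apart where FPKM plus a pseudocount of 0.1 differed 2-fold or more. The members were chosen on these values, and several entered only through the library in which they are high, so these counts describe the selection and support nothing. For R over P, 7 of the 10 were read, of which 6 were higher in R and 0 lower. Of all 11213 genes read, 4.16% were higher and 1.69% lower. Their median log2 ratio was 3.14, from -0.11 for Ltf to 4.41 for S100a9, and that of all genes 0.03. Over the 5 of them above 0 in both libraries the median was 3.06. Ngp, Camp and Mmp8 were under the minimum. For R over N, 9 were read, of which 1 (Prtn3) was higher in R and 4 (Lyz2, S100a9, Ngp and Mmp8) were lower. The background over 11203 genes was 3.09% higher and 1.89% lower. The median was -0.55 for the 9 genes and 0.08 for all genes, and Camp was under the minimum. For P over N, 7 were read, of which 0 were higher in P and 6 lower, on a background of 0.53% higher and 1.55% lower among 11140 genes. The median was -3.92 for the 7 genes and 0.03 for all genes, and over the 4 above 0 in both libraries it was -3.61. Mpo, at 0.995 FPKM in N, fell just short of the minimum, and Camp (0.584 FPKM in N) and Prtn3 (0.782 FPKM in N) were further under it. The comparisons share libraries and are not independent of each other.

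Other genes of the same granules were followed as lists, chosen like the 10 genes with earlier results known. Of 12 further genes of primary granules, 6 had an FPKM of at least 1 in a library. Ctsg, cathepsin G, had 1.36 FPKM in R, 0 in P and 0.370 FPKM in N, on 26, 0 and 7 fragments. Srgn, serglycin, the proteoglycan that packs granule proteins, had 1.30 FPKM in R, 0.219 FPKM in P and 2.50 FPKM in N. Cd63, a membrane protein of granules and of lysosomes in many cells, had 556 FPKM in R, 514 FPKM in P and 627 FPKM in N. Ctsg and Srgn thus shared the low value in P, and Cd63 did not. Gusb had 15.9 FPKM in R, 13.3 FPKM in P and 14.4 FPKM in N, and Galns 15.1, 12.1 and 13.1 FPKM. Ctsc, named after its values were seen, had 6.80 FPKM in R, 4.63 FPKM in P and 6.07 FPKM in N. Cd63, Gusb, Galns and Ctsc were within 2-fold in each comparison. Over the list, 2 of 6 genes read for R over P were at least 2-fold higher in R and 0 lower. R over N had 1 higher and 0 lower of 6, and P over N had 0 higher and 1 lower of 5.

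Among 19 further genes of secondary and tertiary granules, 11 had an FPKM of at least 1 in a library. Lcn2, lipocalin 2, which binds bacterial siderophores and is also made by epithelia, was the most abundant, with 1931 FPKM in R, 545 FPKM in P and 1126 FPKM in N. Chil3, a chitinase-like protein of neutrophils and macrophages, had 2.09 FPKM in R and 1.84 FPKM in N and was listed at 0 in P. Itgam, the integrin subunit CD11b, had 0.375 FPKM in R, 0 in P and 0.876 FPKM in N. Anxa1, annexin A1, had 303 FPKM in R and 298 FPKM in both P and N. R over P had 3 of 10 genes read at least 2-fold higher and 1 lower. R over N had 0 of 11 higher and 2 lower, and P over N had 0 of 11 higher and 4 lower. Pglyrp1 and Hp were lowest in R. Pglyrp1 had 1.75 FPKM in R, 3.65 FPKM in P and 5.28 FPKM in N, and Hp 0.593, 0.722 and 1.79 FPKM. Cyba (106, 86.1 and 100 FPKM in R, P and N) and Mmp9 (41.3, 44.6 and 59.4 FPKM) were within 2-fold in each comparison. Pglyrp1, Hp and Mmp9 were named after their values were seen.

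The 12 genes for receptors of mature neutrophils that are reported here were low, with 0 of 12 at an FPKM of 1 in any library. Clec4d, a C-type lectin receptor of myeloid cells, had 0.449 FPKM in R, 0 in P and 0.233 FPKM in N, on 12, 0 and 6 fragments. Fpr1, a receptor for formylated peptides of bacteria, ran another way, with 0.386 FPKM in R, 0.353 FPKM in P and 0.119 FPKM in N, on 10, 8 and 3 fragments, and the P over N ratio was 2.96 (0.640 to 15.6). Csf3r, the receptor for granulocyte colony-stimulating factor, had 3, 0 and 3 fragments in R, P and N, and the chemokine receptor gene Cxcr2 had 2, 1 and 7. Csf3r and Cxcr2 were chosen after their values were seen. The 12 genes summed to 1.49 FPKM in R, 0.545 FPKM in P and 1.16 FPKM in N. Of 9 genes for cystatins and small secreted proteins of neutrophils 2 reached an FPKM of 1, both in R, and the sums were 3.23 FPKM in R, 0.999 FPKM in P and 2.83 FPKM in N.

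Transcription factors of the lineage fell into groups. Spi1, which encodes PU.1, had 1.29 FPKM in R, 0.0415 FPKM in P and 1.21 FPKM in N, on 33, 1 and 29 fragments. Cebpd had 7.31 FPKM in R, 2.02 FPKM in P and 8.04 FPKM in N. Cebpb, which epithelial cells also use, had 379 FPKM in R, 301 FPKM in P and 443 FPKM in N, and Runx1 had 30.0 FPKM in R, 30.1 FPKM in P and 31.5 FPKM in N. Cebpa and Myb, named after their values were seen, were higher in P than in N. Cebpa had 1.89 FPKM in R, 1.80 FPKM in P and 1.28 FPKM in N, with a P over N ratio of 1.41 (1.01 to 2.01). Myb had 0.752 FPKM in R, 0.985 FPKM in P and 0.585 FPKM in N, with a ratio of 1.68 (1.11 to 2.58). Of the 6 factor genes read for P over N, 2 (Spi1 and Cebpd) were at least 2-fold lower in P and 0 higher. The same pair made up the 2 that were higher in R over P, and for R over N 0 were apart in either direction. Relatives of the calgranulins followed another order. S100a4, a calcium-binding protein of motile cells, had 160 FPKM in R, 331 FPKM in P and 221 FPKM in N, and of the 5 genes read in this list 0 were apart for P over N. The genes for inhibitors of granule proteases, led by Wfdc2 with 611 FPKM in R, 474 FPKM in P and 561 FPKM in N, and by Slpi with 283 FPKM in R, 271 FPKM in P and 258 FPKM in N, had 0 of 3 apart in each comparison.

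**Figure D5:**
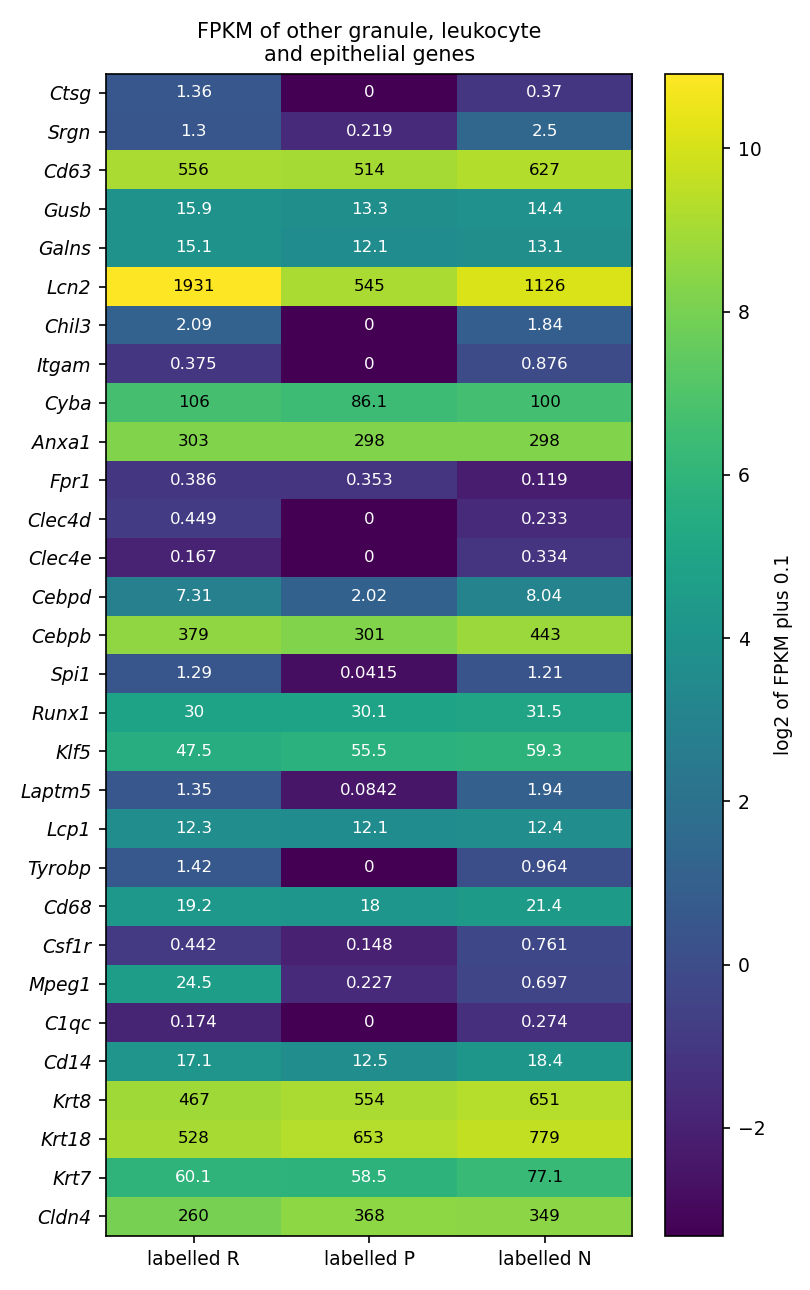
FPKM (printed in each cell, coloured on a log2 scale after adding 0.1) of genes named by rule from the lists of other granule genes, receptors, transcription factors, leukocytes, macrophages and epithelium, in the libraries labelled R, P and N. Ctsg, Chil3, Itgam, Spi1, Laptm5 and Tyrobp are low in P, while Cd63, Anxa1, Runx1, Krt8, Krt18 and Krt7 are within 2-fold across the libraries.

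Some leukocyte genes were also low in P, and their part in these results was not tested. Of the pan-leukocyte genes, 3 of 5 read for R over P were at least 2-fold higher in R and 0 lower, 0 of 5 were apart in either direction for R over N, and 2 of 4 were lower in P and 0 higher for P over N. Of 9 pan-leukocyte genes 5 had an FPKM of at least 1 in R, 2 in P and 4 in N, and 2 of the 9 were at 0 in P. Laptm5, a lysosomal protein of blood cells, had 1.35 FPKM in R, 0.0842 FPKM in P and 1.94 FPKM in N. Tyrobp, the signalling adaptor DAP12 of myeloid and NK cells, had 1.42 FPKM in R, 0 in P and 0.964 FPKM in N. The list summed to 52.2 FPKM in R, 48.4 FPKM in P and 45.2 FPKM in N, a sum carried by genes that were not apart in any comparison, Itgb2 (34.1 FPKM in R, 35.9 FPKM in P and 26.3 FPKM in N) and Lcp1 (12.3 FPKM in R, 12.1 FPKM in P and 12.4 FPKM in N). Macrophage genes summed to 63.1 FPKM in R, 32.6 FPKM in P and 43.7 FPKM in N, with 1, 3 and 3 of 12 at 0. Among them Mpeg1, perforin-2, had 24.5 FPKM in R, 0.227 FPKM in P and 0.697 FPKM in N, and Cd68 had 19.2 FPKM in R, 18.0 FPKM in P and 21.4 FPKM in N.

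Lymphocyte genes were low, and 0 of the 9 T cell and 0 of the 6 B cell genes reached an FPKM of 1. The 9 T cell genes summed to 1.36 FPKM in R, 0.902 FPKM in P and 0.790 FPKM in N, with 2, 6 and 5 of them at 0, and Cd3e was at 0 in P and N. Lck, a kinase of T cell receptor signalling, gave most of that sum, with 0.847 FPKM in R, 0.505 FPKM in P and 0.494 FPKM in N, on 35, 20 and 19 fragments. The 6 B cell genes summed to 1.57 FPKM in R, 0.206 FPKM in P and 0.910 FPKM in N, with 1, 5 and 0 at 0. The 6 NK cell genes summed to 1.71 FPKM in R, 0 in P and 0.327 FPKM in N, and in R granzyme B (Gzmb, also made by activated T cells) gave 1.58 FPKM of it. Eosinophil genes summed to at most 0.0421 FPKM (R). Dendritic cell genes summed to 3.09 FPKM in R, 2.85 FPKM in P and 3.61 FPKM in N, and those of mast cells and basophils to 1.14 FPKM in R, 1.05 FPKM in P and 1.65 FPKM in N. Zbtb46 carried the dendritic sum, with 2.60 FPKM in R, 2.50 FPKM in P and 2.24 FPKM in N, while Itgax had 3, 1 and 46 fragments. Platelet genes summed to 7.98 FPKM in R, 4.89 FPKM in P and 6.33 FPKM in N, and erythroid genes to 28.7 FPKM in R, 34.7 FPKM in P and 40.1 FPKM in N. For P over N, 1 of 3 platelet genes read was at least 2-fold lower and 0 higher. It was Pf4, with 0.806 FPKM in R, 0 in P and 1.80 FPKM in N. Likewise 1 of 3 erythroid genes was lower and 0 higher. It was Hba-a1, with 7.49 FPKM in R, 0 in P and 3.99 FPKM in N, whereas Hba-a2 had 16.6, 29.5 and 30.2 FPKM. The epithelial identity of the spheroids was plain in all libraries, with 8 of 9 genes at an FPKM of at least 1 and a sum of 1747 FPKM in R, 2095 FPKM in P and 2385 FPKM in N. Krt18, a keratin of simple epithelia, alone had 528 FPKM in R, 653 FPKM in P and 779 FPKM in N. Krt14, a basal keratin, was the 1 gene of 8 read that was at least 2-fold lower in R, with 14.0 FPKM in R, 33.6 FPKM in P and 32.3 FPKM in N.

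Depth did not separate the libraries much, with 19178982 fragments in R, 17887652 in P and 17894139 in N at 300 aligned bases each. Genes listed at 0 in P were not common among well expressed genes. Of 7349 genes above 5 FPKM in both R and N, 0 were listed at 0 in P. On RefSeq transcripts alone, 85 of them were at 0 in P. By the same rule on RefSeq transcripts alone, 89 genes were at 0 in R and 85 in N. None of the 4 members listed at 0 in P was above 5 FPKM in both R and N. The check therefore does not cover the levels at which these members stood.

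The genes closest in pattern to the members were sought among the 7880 other genes that reached 5 FPKM in any library. Likeness was the distance, over the log2 ratios of P over N and R over N, to the median ratios of the members read (-3.92 and -0.55), and thus over 3 libraries alone. Nearest were Prl2c3 (distance 0.48), a placental hormone of the proliferin family whose close copies could share its reads, Il24 (0.68), a cytokine, and Cish (1.15), an inhibitor of cytokine signalling. Psme2b (1.78), a copy of a proteasome activator gene, Ccl6 (1.86), a chemokine of myeloid cells, Mmp13 (1.86), a collagenase, P2ry6 (1.90), a nucleotide receptor, and Cebpd (2.02) followed. Il24 had 10.7 FPKM in R, 0.535 FPKM in P and 9.80 FPKM in N, on 249, 12 and 213 fragments. Cish had 13.1 FPKM in R, 1.28 FPKM in P and 11.3 FPKM in N. Ccl6 had 1.70 FPKM in R, 0.0702 FPKM in P and 6.38 FPKM in N, and was the lowest of the 8 in R relative to N. Within a distance of 1 there were 2 of the 7880 genes. Genes below 5 FPKM in every library were not searched, and Elane, Mpo, Prtn3, Ngp, Mmp8 and Camp are themselves below it. Laptm5, also below it, had log2 ratios of -3.47 (P over N) and -0.49 (R over N). Both lay nearer to the medians of the members than those of Prl2c3 (-3.46 and -0.43). Spi1 (-3.21 and 0.08) was below 5 FPKM too, as was Fpr1, which lay far off (1.05 and 1.15). The 8 genes are therefore nearest only among genes that reached 5 FPKM. The members were themselves spread around the centre. For P over N and R over N, Lyz2 had log2 ratios of -6.14 and -2.13, and S100a8 of -3.68 and -0.55. Prtn3 had -1.21 and 1.13, and Ltf -0.39 and -0.50. The count within 1 therefore does not say how alike the members are.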

How the data were processed

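The 3 libraries of spheroid RNA, 1 for each condition, were grouped by the labels deposited with them. For alignment the authors used HISAT2 (version 2.2.0), and StringTie served to quantify RefSeq and assembled transcripts (its version is 2.1.3 in the submitters' processing notes and 2.1.5 in the headers of the files). Each transcript has a coverage, an FPKM and a TPM value, all normalized by the authors as deposited, and no read count. The notes name mm9 as build, whereas 99.3% of 23200 symbols lie on their GRCm38 genes, and coordinates are given as in the files.

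The FPKM of a gene is the sum of its RefSeq transcripts and of assembled ones in the same locus whose exons overlap it most. Lines that carry the gene's reference name alone were an alternative. Fragments are aligned bases over 300. Intervals are exact, Poisson for levels and Clopper-Pearson for ratios, at 95%, and cover counting error only. Log2 ratios use a pseudocount of 0.1 FPKM, and a call needs 1 FPKM or more in 1 of the libraries compared and a 2-fold ratio. No test was run. From each list the 3 genes of highest FPKM and the 2 with the largest log2 ratio of P over N could be named, and genes of the lists named beyond that were picked after their values were seen, as was the use of examples. The 8 nearest genes leave out predicted genes, microRNAs and snoRNAs. A gene of the receptor list is not reported here and was left out of its sums. Members and lists were chosen with earlier results of these data known. Calls and intervals were tested on simulated data. Alternatives were TPM, other pseudocounts and minimums, RefSeq transcripts alone, the leading transcript alone, rescaling by the median ratio of 7223 genes and exchanged labels, and 2 were added after the data were seen. Software was Python 3.11.15, SciPy 1.17.1, NumPy 2.4.6, Matplotlib 3.10.9 and pandas 2.3.3.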

Additional observations from a re-analysis of the deposited data

How the results depend on the processing

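No paired analysis was possible because each condition has 1 library. With TPM, no minimum, RefSeq transcripts alone, the leading transcript of each gene or rescaling by the median ratio, each median moved by less than the typical counting error of a member and each count of members at least 2-fold apart within 1.5 times the reported one. The most changed of these were TPM and no minimum. With TPM the medians were 4.00 for R over P, -0.97 for R over N and -4.50 for P over N. TPM values are larger than FPKM values here, so the same minimum of 1 was looser and the pseudocount of 0.1 weighed less. With TPM 8, 10 and 10 members were read for R over P, R over N and P over N. For P over N 9 of 10 members were lower with TPM, against 311 of 12397 genes, and 9 of 10 with no minimum, against 594 of 24402. As reported it was 6 of 7 members, against 173 of 11140 genes. At a pseudocount of 1 the median log2 ratio of the members was 1.38 for R over P and -1.95 for P over N. Of 9 members read, 0 were then higher in R over N, against 250 of 11203 genes. At a pseudocount of 0.01 the median for P over N was -6.49. With a minimum of 5 FPKM, 2 of 3 members read were higher in R over P, against 318 of 8059 genes. For R over N, 0 of 4 were higher and 2 lower, against 235 and 88 of 7989 genes. For P over N, 3 of 4 were lower, against 64 of 7769 genes. Of 180 ratios of single members under the alternatives that keep the labels, 179 kept their sign. The exception was S100a9 for R over P on RefSeq transcripts alone, where both libraries are listed at 0. This count was largely fixed in advance and says little on robustness. A pseudocount cannot turn a sign, TPM and rescaling multiply a library by a single factor, and the transcript choice matters only for S100a9.

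With the labels N and P exchanged, the values change places by construction. The median became -0.55 for R over P, 3.14 for R over N and 3.92 for P over N. The members higher and lower became 1 and 4 of 9 read for R over P, 6 and 0 of 7 for R over N, and 6 and 0 of 7 for P over N. The counts over all genes changed places in the same way. For R over P the log2 ratios then were -2.13 for Lyz2, -0.55 for S100a8, -1.46 for S100a9, -1.63 for Ngp and -0.49 for Elane. For R over N they were 4.00 for Lyz2, 4.41 for S100a9, 3.26 for Ngp and 0.88 for Mmp8. For P over N they were 6.14 for Lyz2, 3.68 for S100a8, 5.87 for S100a9, 4.89 for Ngp, 1.11 for Camp, 3.92 for Mmp8, 3.54 for Elane, 3.45 for Mpo and 1.21 for Prtn3. Without Ltf, the 9 other genes together rest on 18 fragments in P, so single ratios against P are imprecise.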
